A study of Mus musculus with 7 samples.

Results

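The genes described here are 35 genes of endoplasmic reticulum (ER) stress and protein folding, read from the UMI counts of single cells of the mouse pancreas. They were taken by name from a list, and all 35 are listed in the count tables, which together hold 33864 genes. A unique molecular identifier (UMI) marks a captured mRNA molecule at its 3′ end, so that a value counts molecules and does not scale with transcript length. The 7 mice are labelled C57BL/6, the study's methods name the background of the i4F line as C57BL/6J.Ola.Hsd, all were 2 months of age and each gave 1 library, so the mouse is the replicate throughout. WT mice (n = 2) and i4F mice (n = 3) drank doxycycline at 1 mg/ml with 7.5% sucrose for 7 days. The i4F mice carry the i4F-B transgenes, a doxycycline-dependent transactivator in Rosa26 and an inducible cassette of the Yamanaka factors (OSKM) in Pparg, heterozygous for both and active in all tissues rather than in 1 cell type. Caerulein mice (n = 2) were wild type and received 7 hourly intraperitoneal injections of this cholecystokinin analogue at 100 µg/kg on each of 2 consecutive days. The study's methods for this protocol place the sacrifice of these mice after the last day of injections, not on it. Their labels name no doxycycline, so that caerulein and the absence of doxycycline cannot be told apart in the comparison with WT. The library names fall into 2 series, of which one holds WT 1 and all i4F mice and the other holds WT 2 and both caerulein mice.

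Secretory and membrane proteins enter the ER through the Sec61 channel, are folded there by chaperones such as BiP (Hspa5) and by disulfide isomerases, and are sent back to the cytosol for degradation when folding fails. Unfolded protein in the ER activates the sensors IRE1 (Ern1), PERK (Eif2ak3) and ATF6, which act through spliced XBP1, through ATF4 and CHOP (Ddit3), and through cleaved ATF6. Acinar cells of the pancreas secrete digestive enzymes and plasma cells secrete antibodies, and both are textbook cells with a large ER. By role, the 35 genes comprise 10 folding chaperones of the lumen, 4 disulfide isomerases, 2 secreted or luminal stress proteins, 3 sensors, 3 transcription factors, 3 targets of the integrated stress response, 7 genes of the degradation of misfolded proteins and 3 genes of translocation into the ER.

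The RefSeq promoters (GRCm38.p6) show what several of these genes share in sequence. The 250 bases before the start were found for 29 of the 35 genes and searched on both strands for the ER stress response element (ERSE: CCAAT, 9 bases of any kind, CCACG), for the unfolded protein response element (UPRE: TGACGTGG) and for the C/EBP-ATF response element that ATF4 binds (CARE: TGATGNAAN). An ERSE was found in 9 of the 29 (31.0%), namely Hspa5, Calr, Derl3, Hsp90b1, Canx, Pdia6, Dnajc3, Creld2 and Syvn1, whereas 37 of the 32851 promoters in the table (0.113%) hold it. A CARE lay in 3 of the 29 (10.3%), namely Chac1, Asns and Herpud1, and in 3.44% of all promoters. No UPRE was found in the 29 windows, and 0.563% of all promoters hold these letters. No match of one motif overlapped a match of another in these windows. The windows of Hspa5 (chr2:34771840-34772089, plus strand), Derl3 (chr10:75893148-75893397, plus strand) and Creld2 (chr15:88819396-88819645, plus strand) are printed because several results turn on these genes, and those of Asns (chr6:7693210-7693459, minus strand) and Chac1 (chr2:119350992-119351241, plus strand) because they hold the element of the other branch. All run 5′ to 3′ on the gene's strand, and capitals mark the fixed letters of the ERSE, or the CARE. The ERSE of Hspa5 and the CARE of Asns lie on the gene's strand, 46 and 14 bases before the start, and the other matches lie on the opposite strand and appear as the reverse complement. A match describes the letters of a window and does not show that a factor binds there.
Hspa5: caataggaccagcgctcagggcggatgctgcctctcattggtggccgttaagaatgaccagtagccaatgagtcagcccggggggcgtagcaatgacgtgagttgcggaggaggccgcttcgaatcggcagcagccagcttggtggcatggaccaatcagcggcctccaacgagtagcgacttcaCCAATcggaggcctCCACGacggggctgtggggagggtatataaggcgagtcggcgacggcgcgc
Derl3: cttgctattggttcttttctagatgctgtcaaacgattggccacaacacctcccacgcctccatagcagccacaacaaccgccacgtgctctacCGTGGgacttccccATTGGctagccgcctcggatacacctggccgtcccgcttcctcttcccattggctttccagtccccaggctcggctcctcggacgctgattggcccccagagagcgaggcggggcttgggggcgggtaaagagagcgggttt
Creld2: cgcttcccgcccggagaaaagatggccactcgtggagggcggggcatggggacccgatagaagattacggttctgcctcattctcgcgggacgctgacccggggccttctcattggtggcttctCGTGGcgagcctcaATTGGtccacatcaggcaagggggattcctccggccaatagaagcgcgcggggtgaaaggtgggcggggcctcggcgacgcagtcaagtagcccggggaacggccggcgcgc
Asns: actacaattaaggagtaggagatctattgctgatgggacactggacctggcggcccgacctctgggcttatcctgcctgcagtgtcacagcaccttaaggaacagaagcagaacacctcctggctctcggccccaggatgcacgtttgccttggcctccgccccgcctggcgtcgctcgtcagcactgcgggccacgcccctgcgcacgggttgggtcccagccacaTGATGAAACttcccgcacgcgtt
Chac1: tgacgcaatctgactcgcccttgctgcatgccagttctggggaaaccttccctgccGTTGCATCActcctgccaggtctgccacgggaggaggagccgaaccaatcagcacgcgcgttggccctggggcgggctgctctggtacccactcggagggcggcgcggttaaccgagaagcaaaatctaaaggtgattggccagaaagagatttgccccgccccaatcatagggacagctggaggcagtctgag

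The libraries held 4327 to 15138 cells and 15469018 to 64784216 UMIs each, with 10653 cells in WT, 25643 in i4F and 22177 in caerulein mice, and any pair of libraries shared between 3 and 39 cell barcodes, at most 0.411% of the smaller library. Cell types were those of the deposited cluster labels, and levels are UMIs per 1000000 (CPM) summed over the cells of a type in a mouse. Conditions were compared over mice with edgeR's quasi-likelihood test on these sums, with p-values adjusted by Benjamini-Hochberg over all genes tested and called under 0.05. The cells labelled acinar numbered 853 and 917 in WT, 594, 807 and 2130 in i4F and 1542 and 1094 in caerulein mice. Of 43 acinar markers 19 had UMIs, and genes such as Cela1, Cpa1 and Pnlip are not listed in the count tables. Such genes are thus absent from the totals behind every share and CPM. The 19 markers took 10.0% and 11.8% of the UMIs of acinar cells in WT, 1.13%, 1.68% and 6.61% in i4F and 1.40% and 1.14% in caerulein mice. The i4F acinar cells join a cluster labelled Acinar_1, with 8 acinar markers among its 10 leading genes, and a cluster labelled Acinar_2, with 0 among its 10, which Ly6g6c, Sprr2b and Sprr2a3 lead. The library i4F 3 stood apart, with 2071 of its 2130 acinar cells in Acinar_1, against 61 of 807 in i4F 2 and 11 of 594 in i4F 1. Values without i4F 3 are given beside the main results. It was singled out after its values were seen, so that adjusted p-values without it are a description only. The acinar cells of the other i4F mice were mostly those of Acinar_2.

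In WT pancreas the ER genes took a larger share of all UMIs in acinar cells than in ductal cells. The share was 1.77% and 1.37% in acinar cells of the WT mice, with exact (Clopper-Pearson) 95% intervals, which cover counting error only, of 1.74% to 1.79% and 1.34% to 1.39%. Endocrine cells had 1.40% and 1.34%, stellate cells 1.37% and 0.979%, and ductal cells 0.785% and 0.668%. Acinar cells were above endocrine cells in both WT mice, with intervals that were apart in WT 1 and overlapped in WT 2. The cell types were defined from the same counts, and these shares are a description with no test. The totals of acinar cells lack the acinar genes that are not listed, and the part of this in the shares was not tested.

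**Figure D1:**
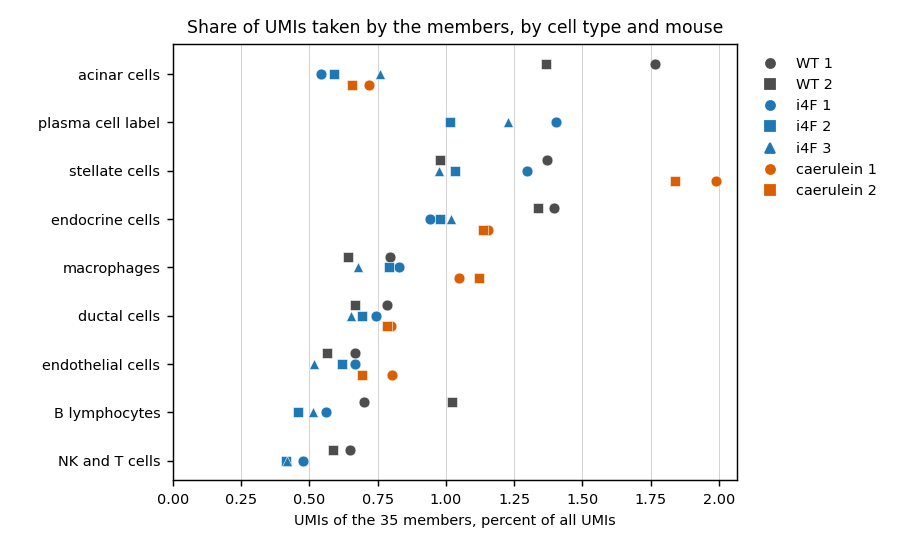
Percent of all UMIs of a cell type that came from the 35 genes (x axis), by cell type (y axis), with a point for each mouse. Acinar cells of the WT mice lie at 1.77% and 1.37% and those of the i4F and caerulein mice between 0.544% and 0.759%, whereas stellate cells of the caerulein mice reach 1.99% and 1.84%.

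Among 10 cell types of the WT mice, 18 of the 35 genes had their highest mean CPM in acinar cells, 11 in endocrine cells, and 2 each in ductal and in stellate cells. Edem1, a lectin that directs misfolded glycoproteins to degradation, had 278 CPM on average in acinar cells and 48.1 CPM in the next type, a ratio of 5.78. Sel1l, the adaptor of the Hrd1 ubiquitin ligase, had 521 and 94.8 CPM (ratio 5.49), and P4hb, a disulfide isomerase, had 1765 and 353 CPM (ratio 5.00). Derl3, a derlin of the degradation pathway, had 365 and 267 CPM in acinar cells of the WT mice but 5.40 and 3.10 CPM in their ductal cells and 14.4 and 3.51 CPM in their stellate cells. BiP differed from these, with 4050 and 2940 CPM in stellate cells and 2807 and 1333 CPM in acinar cells. In i4F mice 2 of the 35 genes had their highest mean in acinar cells, 14 in a cluster with plasma cell markers, 9 in endocrine and 6 in stellate cells. In caerulein mice 15 had it in stellate cells, 8 in acinar and 8 in endocrine cells. The cell types ranked were not the same in each condition, so these counts do not compare conditions. Only i4F mice had a separate cluster with plasma cell markers, and only WT mice had a cluster labelled lymph nodes.

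In acinar cells most ER genes were lower in every i4F mouse and in both caerulein mice than in the WT mice, but no gene of the 35 passed the test. Their share of UMIs was 0.544%, 0.590% and 0.759% in i4F and 0.718% and 0.657% in caerulein mice, all below both WT mice. In every i4F mouse 25 of the 35 genes had a CPM below both WT mice, where 17.9% of all genes tested did, and 0 were above both. Without i4F 3 there were 29, where 21.8% of all genes were. In both caerulein mice 23 of the 35 were below both WT mice, where 14.2% of all genes tested were, and Ddit3, Pdia3 and Trib3 were above. With edgeR 0 of the 35 were called in i4F against WT, where 0.0808% of all genes were, and 0 in caerulein against WT, where 0.0359% were. At an unadjusted p under 0.05 there were 22 (62.9%) and 26 (74.3%), where 25.1% and 21.9% of all genes were. DESeq2 called 11 and 20, all lower, where 9.64% and 7.49% of the genes to which it gave an adjusted p were called, and without i4F 3 it called 27 and 26, where 23.9% and 15.6% were. The median log2 fold change of the 35 genes was -1.29 in i4F mice, with all 35 negative, and -1.82 in caerulein mice, with 31 negative, beside 0.14 and 0.10 over all genes tested. The i4F median was -1.89 without i4F 3 and -0.86 without WT 1. Without TMM scaling the medians over all genes were 0.32 and 0.69, those of the 35 genes were -1.21 and -1.23, and 33 and 27 of them were negative. In simulated sums with the depth and spread of these acinar cells, the test recovered 0 of 107 genes changed 4-fold in i4F against WT. Only these and 85 genes changed 2-fold were altered among 11134. The adjustment is stricter where few genes change, so this recovery need not hold for the data. Without i4F 3, edgeR called 31 of the 35 lower in i4F mice, where 32.7% of all genes were called, and 26 lower in caerulein mice, where 19.4% were. Without i4F 1 or without i4F 2 instead, it called 0 in i4F mice, where 0% of all genes were called. A fit of the WT and caerulein mice alone called 25 lower, where 23.9% of all genes were called, and a fit of the WT and i4F mice alone called 0 of the 35, where 0% were.

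**Figure D2:**
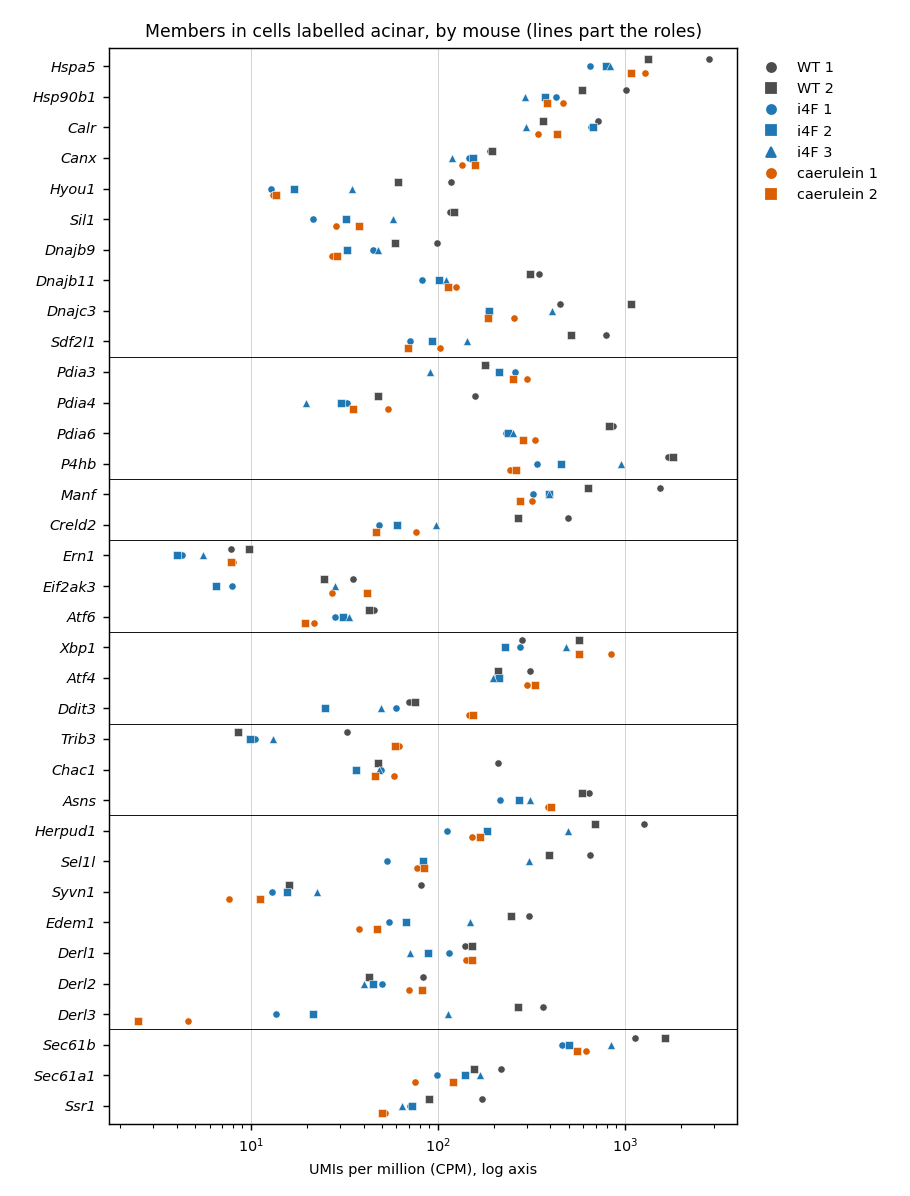
CPM on a log axis (x axis) of each of the 35 genes (y axis, ordered by role with lines between roles) in cells labelled acinar, with a point for each of the 7 mice. Derl3 lies at 365 and 267 CPM in WT against 4.58 and 2.48 CPM in caerulein mice, whereas Ddit3 lies at 147 and 154 CPM in caerulein mice, above 70.4 and 75.8 CPM in WT mice.

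All 10 chaperones had negative fold changes in acinar cells in both comparisons, with median log2 values of -1.54 in i4F and -2.07 in caerulein mice, and of -2.04 and -2.07 without i4F 3. BiP, the main Hsp70 chaperone of the ER lumen, had 2807 and 1333 CPM in WT, 651, 795 and 833 CPM in i4F and 1282 and 1080 CPM in caerulein mice. All treated mice were below both WT mice, with caerulein 1 close to WT 2, and the log2 fold changes were -1.53 (SE 0.46, edgeR adjusted p = 0.123) and -1.39 (SE 0.52, adjusted p = 0.176). Without i4F 3 the fold changes of BiP (Hspa5) were -1.88 (edgeR adjusted p = 0.00301) and -1.39 (adjusted p = 0.0199). Genes shown per mouse in acinar cells other than BiP, the sensors and the transcription factors were chosen after their values were seen. Sdf2l1, a luminal partner of the J-proteins that assist BiP, had 792 and 513 CPM in WT, 71.1, 92.6 and 142 CPM in i4F and 103 and 69.4 CPM in caerulein mice. Its groups were apart, with log2 fold changes of -2.70 (SE 0.53, adjusted p = 0.0810) and -3.49 (SE 0.63, adjusted p = 0.0610), and without i4F 3 of -3.36 (edgeR adjusted p = 9.1e-05) and -3.49 (adjusted p = 0.00013). Hyou1, a large chaperone that acts as an exchange factor for BiP, had 117 and 61.2 CPM in WT, 12.7, 17.0 and 34.6 CPM in i4F and 13.1 and 13.6 CPM in caerulein mice. Calreticulin (Calr), a lectin chaperone, had 715 and 367 CPM in WT, 659, 678 and 296 CPM in i4F and 343 and 433 CPM in caerulein mice, so that its groups overlapped.

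The disulfide isomerases were not uniform. P4hb had 1711 and 1819 CPM in WT, 338, 454 and 954 CPM in i4F and 243 and 262 CPM in caerulein mice, with i4F 3 between the other i4F mice and the WT mice. Pdia3, which acts on glycoproteins bound to calnexin and calreticulin, had 181 and 179 CPM in WT, 257, 213 and 90.8 CPM in i4F and 299 and 253 CPM in caerulein mice. Pdia3 was thus above WT in both caerulein mice by CPM, but its fitted log2 fold change was 0.04, since TMM scaling lowers the values of these mice relative to WT. Both luminal stress proteins were below WT in all treated mice. Creld2 had 499 and 267 CPM in WT, 48.2, 60.4 and 97.3 CPM in i4F and 76.5 and 46.7 CPM in caerulein mice. Manf, which can be secreted under ER stress, had 1551 and 637 CPM in WT, 323, 394 and 395 CPM in i4F and 317 and 277 CPM in caerulein mice.

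In caerulein mice a gene of the degradation of misfolded proteins, Derl3, had the most negative fold change of the 35. It had 365 and 267 CPM in WT, 13.6, 21.5 and 113 CPM in i4F and 4.58 and 2.48 CPM in caerulein mice. The caerulein values rest on 27 and 6 UMIs, beside 1.61 and 1.23 CPM in ductal cells of the same mice. The log2 fold changes were -2.54 (SE 0.96, edgeR adjusted p = 0.163) in i4F and -6.97 (SE 1.38, adjusted p = 0.0684) in caerulein mice, and without i4F 3 they were -4.53 (edgeR adjusted p = 2.87e-05) and -6.93 (adjusted p = 1.48e-05). Herpud1, a membrane protein of the degradation complex, had 1267 and 692 CPM in WT, 112, 184 and 494 CPM in i4F and 152 and 169 CPM in caerulein mice. Sel1l had 649 and 393 CPM in WT, 53.3, 82.8 and 307 CPM in i4F and 77.2 and 83.8 CPM in caerulein mice. In Derl3, Herpud1 and Sel1l alike, i4F 3 was the highest i4F mouse and both caerulein mice lay below it. Edem1 had 309 and 247 CPM in WT, 54.95, 67.1 and 148 CPM in i4F and 37.7 and 47.5 CPM in caerulein mice. Derl1, another derlin, had 139 and 152 CPM in WT and 141 and 153 CPM in caerulein mice, which overlapped. In i4F mice it had 114, 88.4 and 71.4 CPM, all below both WT mice.

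The sensors were low in acinar cells. Ern1 had 7.82 and 9.79 CPM in WT, on 6 and 8 UMIs, 4.25, 4.03 and 5.54 CPM in i4F and 7.98 and 7.85 CPM in caerulein mice. Eif2ak3 had 35.2 and 24.5 CPM in WT, 7.93, 6.49 and 28.1 CPM in i4F and 27.2 and 41.7 CPM in caerulein mice. Both overlapped between WT and caerulein mice. Atf6 had 45.6 and 42.8 CPM in WT, 28.04, 31.1 and 33.3 CPM in i4F and 21.7 and 19.4 CPM in caerulein mice, and was the one sensor below WT in all 5 treated mice (log2 fold changes -0.62 and -1.68, edgeR adjusted p = 0.285 and 0.0815). Without i4F 3 the fold changes of Atf6 were -0.95 and -1.68 (edgeR adjusted p = 0.0161 and 0.0017) and that of Eif2ak3 in i4F mice was -2.41 (adjusted p = 0.000826).

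None of the transcription factors was below WT in all 5 treated mice. Xbp1 had 283 and 571 CPM in WT, 275, 228 and 482 CPM in i4F and 841 and 571 CPM in caerulein mice, and its groups overlapped. The counts do not part its spliced from its unspliced form. Atf4 had 313 and 209 CPM in WT, 204, 212 and 196 CPM in i4F and 300 and 332 CPM in caerulein mice, again with overlap. Ddit3 had 70.4 and 75.8 CPM in WT, 59.8, 24.8 and 49.9 CPM in i4F and 147 and 154 CPM in caerulein mice. It was higher in both caerulein mice and lower in every i4F mouse than in WT, but its log2 fold changes of 0.45 (SE 0.50, edgeR adjusted p = 0.623) and -0.79 (SE 0.46, adjusted p = 0.305) did not pass the test. Without i4F 3 the fold changes of Ddit3 were 0.44 (edgeR adjusted p = 0.449) and -1.15 (adjusted p = 0.0461).

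Targets of the integrated stress response differed among themselves. Trib3, a pseudokinase induced by ATF4 and CHOP, had 32.6 and 8.56 CPM in WT, 10.5, 9.84 and 13.2 CPM in i4F and 61.6 and 58.6 CPM in caerulein mice. Asns, which makes asparagine, had 641 and 591 CPM in WT, 215, 273 and 309 CPM in i4F and 387 and 405 CPM in caerulein mice, so that it was below WT in all treated mice. Chac1, a glutathione-degrading enzyme, had 208 and 47.7 CPM in WT and between 36.7 and 58.4 CPM in the treated mice. Of the translocation genes, Sec61b, a subunit of the channel, had 1127 and 1637 CPM in WT, 463, 504 and 847 CPM in i4F and 617 and 556 CPM in caerulein mice, with all treated mice below WT.

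Of other genes of the same processes edgeR called 0 in acinar cells in either comparison, a count that rests on i4F 3. The medians in caerulein mice were -0.70 over 33 other folding and disulfide genes, -1.08 over 30 other translocation and glycosylation genes, -0.58 over 24 other degradation genes and -0.18 over 35 other genes of the integrated stress response. In i4F mice they were -0.71, -0.94, -0.47 and -0.10. At an unadjusted p under 0.05 there were 15, 15, 8 and 7 genes in caerulein and 16, 17, 8 and 8 in i4F mice, where 21.9% and 25.1% of all genes were. Without i4F 3 edgeR called 15, 19, 9 and 7 of these genes lower in caerulein mice and 0, 1, 0 and 1 higher, where 19.4% of all genes were called. In i4F mice it then called 21, 20, 12 and 13 lower and 2, 0, 1 and 4 higher, where 32.7% of all genes were called, and the medians were -0.94, -1.19, -0.81 and -0.39.

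Of the 9 genes with an ERSE, 7 were below both WT mice in every i4F mouse and 8 in both caerulein mice. Of all genes tested 17.9% and 14.2% were, and the median log2 fold changes of the 9 were -1.55 and -2.03. Of the 20 genes with a window but no ERSE, 13 and 10 were, with medians of -1.14 and -1.79. Without i4F 3 the i4F counts were 8 and 15, with medians of -2.10 and -1.80, and the share over all genes is the one given above for acinar cells without this mouse. Of the 3 genes with a CARE, Asns and Herpud1 were below both WT mice in all treated mice and Chac1 was not. No test was made between these sets.

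The share of acinar markers moved with the ER genes, being lowest in the caerulein mice, i4F 1 and i4F 2. Ductal markers, all 12 with UMIs, took 0.885% and 0.678% of the UMIs of acinar cells in WT, 2.38%, 1.42% and 0.775% in i4F and 5.56% and 6.07% in caerulein mice. In ductal cells they took 5.48% and 5.13% in WT and 8.26% and 8.38% in caerulein mice. Cells labelled acinar in caerulein mice thus had a larger share of ductal markers than WT ductal cells. Macrophage markers, 10 genes, took 0.00352% and 0.0115% in WT, 0.106%, 0.0627% and 0.0299% in i4F and 0.302% and 0.163% in caerulein mice. Stellate markers took 0.135% and 0.121% in WT, 0.193%, 0.135% and 0.0575% in i4F and 0.233% and 0.258% in caerulein mice. Plasma cell markers took 0.00560% and 0.0135% in WT, 0.151%, 0.0189% and 0.134% in i4F and 0.0111% and 0.0132% in caerulein mice. The median UMIs per acinar cell were 431 and 502 in WT, 1933, 2020 and 606 in i4F and 2213.5 and 1322.5 in caerulein mice. The part of these in the result was not tested. Among cells with at least 500 genes the median log2 fold changes of the 35 genes were -1.29 in i4F and -1.78 in caerulein mice, and without the UMIs of 12 digestive enzymes they were -1.29 and -1.83. With the library series as a term they were -1.51 and -1.39. The 12 enzymes took 6.10% and 7.57% of acinar UMIs in WT, 0.406%, 0.571% and 3.24% in i4F and 1.08% and 0.744% in caerulein mice. The list names 33 enzymes and the others are not in the counts, so leaving out 12 cannot tell the part of enzyme UMIs.

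The ER genes were then read in each i4F acinar cluster. In Acinar_2, 30 of the 35 genes (85.7%) were below both WT mice in each of the 3 i4F mice, where 26.7%, 25.8% and 32.6% of all genes were. In Acinar_1, 28 (80%) were in i4F 2 and 29 (82.9%) in i4F 3, where 47.5% and 43.9% of all genes were, with the 11 cells of i4F 1 left out. Within a mouse the level was higher in Acinar_1 for 25 of the 35 genes in i4F 2 and 27 in i4F 3, where 31.1% and 34.2% of all genes were higher, with median log2 ratios of 0.44 and 0.64. Derl3, for example, had 62.2 and 121 CPM in Acinar_1 and 20.3 and 35.7 CPM in Acinar_2 of these mice. With the i4F cells of Acinar_2 alone edgeR called 29 of the 35 lower than in WT, where 27.5% of all genes were called, and with those of Acinar_1 alone 0, where 0% were.

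Between i4F and caerulein acinar cells 0 of the 35 genes were called with edgeR, where 0.126% of all genes were. An unadjusted p under 0.05 was found for 8 (22.9%), near the 18.8% of all genes, and DESeq2 called 2, where 4.5% of the genes with an adjusted p were called. Of the fold changes of i4F against caerulein 23 were positive, with a median of 0.61. The median was 0.04 without TMM, 0.02 with the library series as a term, 0.96 with Acinar_1 alone, -0.05 with Acinar_2 alone and -0.02 without i4F 3, so that its sign depended on the cells and mice used.

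Whether the change differed from that in ductal cells was tested within mice, with limma on the difference in log2 CPM between acinar and ductal cells of each mouse. The effect of caerulein against WT differed between these cell types for 22 of the 35 genes (limma adjusted p under 0.05), where 11.1% of the 10154 genes tested did. For 20 of them the change was lower in acinar cells. Derl3 had a log2 difference of -5.79 (95% interval -6.96 to -4.62, limma adjusted p = 0.00799) and Sdf2l1 of -5.66 (-7.77 to -3.55, adjusted p = 0.0142). Creld2 had -4.49 (adjusted p = 0.0124), P4hb -4.43 (adjusted p = 0.0174), Manf -3.77 (adjusted p = 0.0125) and Edem1 -3.61 (adjusted p = 0.0149). Hsp90b1 also passed, with a smaller difference of -1.996. BiP did not pass, at -1.12 (-2.06 to -0.17, adjusted p = 0.107).

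In ductal cells the levels of several of these genes lay above WT in both caerulein mice, but none of them passed the ductal test. Sdf2l1 had 29.0 and 18.4 CPM in ductal cells of WT and 113 and 78.7 CPM in those of caerulein mice. Manf had 282 and 184 CPM against 593 and 511 CPM, and Creld2 32.5 and 43.7 CPM against 97.96 and 71.4 CPM, and the edgeR adjusted p in ductal cells was 0.0754 for Sdf2l1, 0.0789 for Manf and 0.0553 for Creld2. For Ddit3 and Atf4 the difference between cell types had the opposite sign, at 2.31 (95% interval 1.28 to 3.34, limma adjusted p = 0.0196) and 1.21 (0.56 to 1.86, adjusted p = 0.0321). Ddit3 had 183 and 125 CPM in ductal cells of WT and 38.3 and 34.4 CPM in those of caerulein mice, and Atf4 had 1035 and 681 CPM against 228 and 306 CPM. Only Ddit3 passed the ductal test (edgeR adjusted p = 0.0557 for Atf4), and neither passed in acinar cells (adjusted p = 0.623 for Ddit3 and 0.644 for Atf4).

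In i4F against WT the difference between the cell types was called for 1 gene, Creld2, at -3.04 (95% interval -4.32 to -1.75, limma adjusted p = 0.0438), where 1.12% of all genes were called. All 35 differences were negative, with a median of -1.49 beside 0.15 over all genes. Without i4F 3 that median was -2.03 beside 0.15 over all genes, with 34 genes tested. Without i4F 3, 28 genes were called in i4F and 27 in caerulein mice, where 27.3% and 26.5% of all genes were. The caerulein count fell to 0 without caerulein 2, 1 without caerulein 1, 2 without WT 1 and 7 without WT 2, so that it rests on each of these 4 libraries, and the call of Creld2 in i4F mice was lost without any of the other 6 mice. Without TMM the caerulein count was 18, with 3 positive, where 17.7% of all genes were called, and the i4F count 0, where 0.246% were. Acinar markers took 0.105% and 0.116% of ductal UMIs in WT, 0.0154%, 0.0281% and 0.245% in i4F and 0.0108% and 0.0417% in caerulein mice, and their part in the result was not tested.

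**Figure D3:**
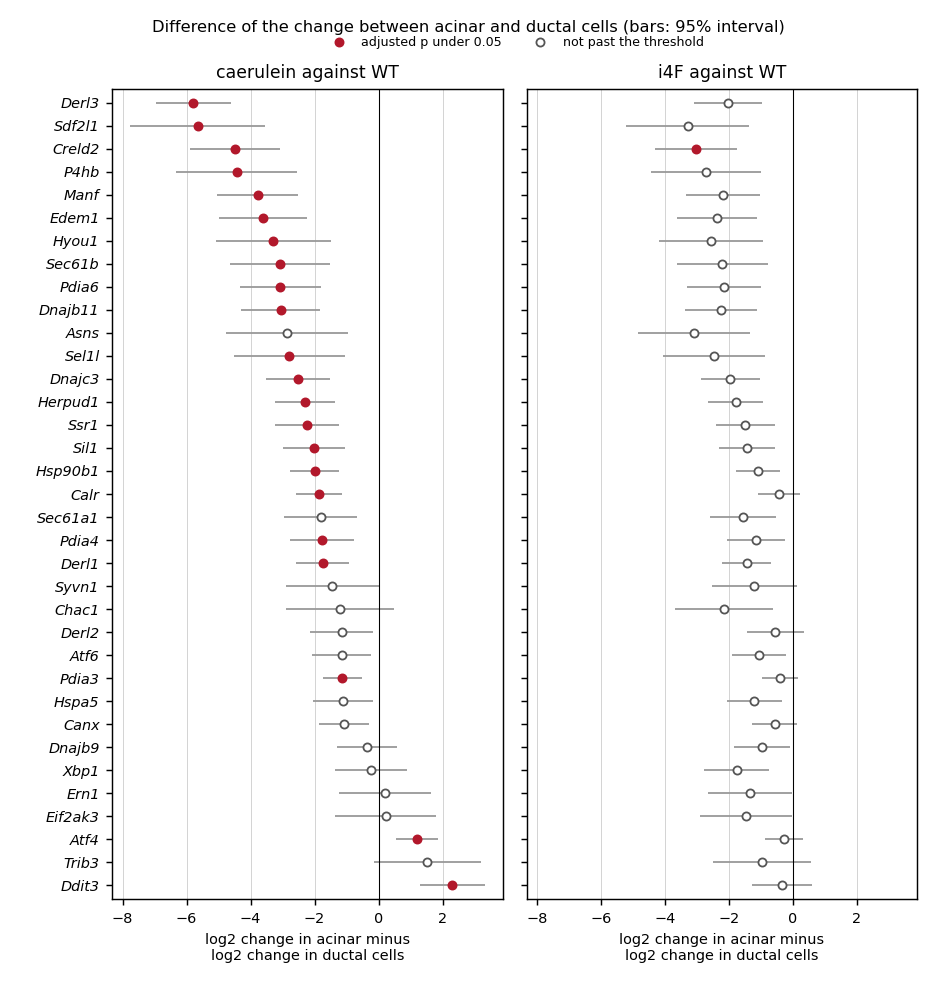
Log2 change in acinar cells minus log2 change in ductal cells of the same mice (x axis) for each of the 35 genes (y axis), for caerulein against WT (left) and i4F against WT (right). Points are limma estimates with 95% intervals as bars, filled where the adjusted p is under 0.05, which holds for 22 genes on the left, from Derl3 at -5.79 to Ddit3 at 2.31, and for Creld2 on the right.

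In ductal cells themselves Ddit3 was the single gene of the 35 past the edgeR threshold in caerulein against WT, where 3.53% of all genes were. It fell by 1.89 on the log2 scale (SE 0.39, edgeR adjusted p = 0.0421), and the i4F mice, with 63.8, 76.4 and 140 CPM, overlapped WT. Without i4F 3 there were 17 calls, 12 higher and 5 lower, where 32.2% of all genes were called, and without i4F 1 there were 8, where 7.55% were. Ddit3 was no longer called without WT 1, WT 2, caerulein 1, caerulein 2 or i4F 2. In i4F against WT 0 genes were called with edgeR, where 0.00861% of all genes were, 5 (14.3%) had an unadjusted p under 0.05, where 17.4% of all genes had, DESeq2 called 1, where 2.67% of the genes with an adjusted p were, and without i4F 3 edgeR called 11, where 26.5% of all genes were. A list of 12 heat-shock and dissociation genes, such as Hspa1a, Fos and Jun, moved with Ddit3 in ductal cells. All 12 had UMIs, and together they took 2.21% and 3.12% of ductal UMIs in WT, 0.836%, 0.909% and 2.54% in i4F and 0.954% and 0.855% in caerulein mice, against 0.393% to 0.595% in acinar cells of all mice. Their part in the result was not tested.

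In stellate cells, the mesenchymal cells that lay down collagen, 7 of the 35 genes rose after caerulein and 0 fell, where 17.1% of all genes were called and 9.99% were called higher. The 35 genes made up 1.37% and 0.979% of stellate UMIs in WT, 1.30%, 1.03% and 0.976% in i4F and 1.99% and 1.84% in caerulein mice, so that only the caerulein mice stood above both WT mice. The 7 called were the 3 translocation genes, the isomerases P4hb, Pdia6 and Pdia3, and Derl1. Sec61b had 309 and 320 CPM in WT and 1513 and 1282 CPM in caerulein mice, and rose by 2.31 on the log2 scale (SE 0.32, edgeR adjusted p = 0.0134). P4hb, which is also a subunit of collagen prolyl 4-hydroxylase, had 321 and 276 CPM against 892 and 981 CPM and rose by 1.81 (SE 0.31, adjusted p = 0.0187). Derl1 rose by 1.19 (SE 0.25, adjusted p = 0.0262) and Sec61a1, the pore of the channel, by 1.53 (SE 0.32, adjusted p = 0.0267). BiP overlapped, with 4050 and 2940 CPM in WT and 3961 and 3458 CPM in caerulein mice. Of 31 other translocation and glycosylation genes 18 rose and 0 fell, and of 33 other folding and disulfide genes 14 rose and 0 fell. Ssr4, a subunit of the translocon-associated complex, rose by 1.88 (SE 0.24, adjusted p = 0.0126), and Fkbp11, an ER prolyl isomerase, by 2.98 (SE 0.35, adjusted p = 0.0108).

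In i4F mice 4 of the 35 genes rose in stellate cells and 0 fell, where 20.6% of all genes were called and 12% were called higher. At an unadjusted p under 0.05 there were 9 (25.7%), where 40.8% of all genes were. The median log2 fold change was 0.05, beside 0.02 over all genes, so that the 35 genes did not stand out as a set. Asns had 28.3 and 19.4 CPM in WT and 70.8, 83.5 and 50.7 CPM in i4F mice, a log2 fold change of 1.69 (SE 0.27, edgeR adjusted p = 0.0184). Sec61b had 1050, 791 and 600 CPM in i4F mice and rose by 1.53 (SE 0.30, adjusted p = 0.0241). Sec61a1 rose by 1.43 (SE 0.30, adjusted p = 0.0265) and P4hb by 1.29 (SE 0.29, adjusted p = 0.0300). Of 34 other genes of the integrated stress response 15 rose and 3 fell. The i4F and caerulein comparisons share the WT mice.

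Without i4F 3 the stellate counts were 14 in caerulein mice (12 higher), where 39.7% of all genes were called, and 11 in i4F mice (7 higher), where 47.8% were. Leaving out either WT or either caerulein mouse left 0 calls in both comparisons, leaving out i4F 1 or i4F 2 left 0 in i4F mice, and leaving out i4F 2 left 4 in caerulein mice. The 4 calls left without i4F 2 stood beside 8.44% of all genes called. The WT stellate cells include a cluster labelled activated that Acta2, Tagln and Myh11 lead, and the main counts of 7 and 4 were the same without this cluster. Acinar markers took 0.113% and 0.119% of stellate UMIs in WT, 0.00454%, 0.0118% and 0.291% in i4F and 0.00677% and 0.00537% in caerulein mice. Macrophage markers took 0.00187% and 0.00466% in WT, 0.0481%, 0.0387% and 0.0237% in i4F and 0.182% and 0.116% in caerulein mice. The heat-shock and dissociation genes took 2.38% and 3.06% in WT, 0.630%, 0.676% and 1.79% in i4F and 0.885% and 0.944% in caerulein mice. The part of these in the result was not tested.

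In macrophages 9 of the 34 genes tested rose after caerulein and 0 fell, where 5.66% of all genes were called and 2.24% were called higher. The 9 included 3 of the 4 isomerases, both luminal stress proteins and 2 of the 10 chaperones. Of 33 other folding and disulfide genes 2 rose and 1 fell, and of 31 other translocation and glycosylation genes 4 rose and 0 fell. Pdia6 had 413 and 316 CPM in WT and 962 and 991 CPM in caerulein mice, and rose by 1.48 (SE 0.27, edgeR adjusted p = 0.0374). Creld2 had 44.6 and 41.4 CPM against 175 and 119 CPM and rose by 1.85 (SE 0.35, adjusted p = 0.0376). The J-protein Dnajb11 rose by 1.28 (SE 0.25, adjusted p = 0.0406) and Hyou1 by 1.48 (SE 0.29, adjusted p = 0.0408). The others were Pdia4, Pdia3, Sec61b, Derl1 and Manf, with log2 fold changes of 1.05 to 1.48. BiP overlapped, with 2461 and 1926 CPM in WT and 1994 and 2275 CPM in caerulein mice. The difference between macrophages and acinar cells was not tested.

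In macrophages of i4F mice 0 genes were called with edgeR, where 0.00828% of all genes were, 9 (26.5%) had an unadjusted p under 0.05, where 19.9% of all genes had, and DESeq2 called 2, where 4.56% of the genes with an adjusted p were. Without i4F 3 the counts were 19 after caerulein (14 higher), where 16.4% of all genes were called, and 3 in i4F mice, where 12.4% were. Leaving out any of the other 6 mice left 0 calls after caerulein. The count of 9 was the same without the clusters that S100a9 leads, a gene known from neutrophils. The WT macrophages join the clusters Macrophages_1, with 45 and 418 cells, and Macrophages_2, with 59 and 96 cells. Neither WT cluster was left out, and the part of this mix in the result was not tested. The heat-shock and dissociation genes took 1.07% and 1.75% of macrophage UMIs in WT, 0.530%, 0.498% and 0.920% in i4F and 0.529% and 0.626% in caerulein mice. Stellate markers, all 11 with UMIs, took 0.140% and 0.219% in WT, 0.0803%, 0.0481% and 0.0357% in i4F and 0.0290% and 0.0210% in caerulein mice. The 10 macrophage markers took 2.24% and 2.55% in WT, 3.68%, 2.77% and 2.51% in i4F and 3.90% and 3.64% in caerulein mice. The part of these in the result was not tested.

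**Figure D4:**
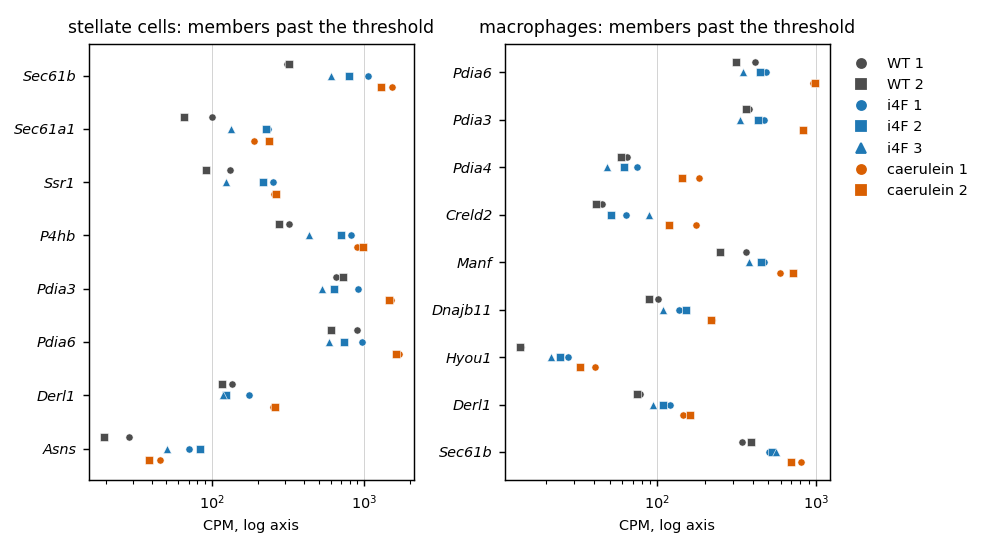
CPM on a log axis (x axis) of the genes past the edgeR threshold (y axis) in stellate cells (left, either comparison with WT) and macrophages (right, caerulein against WT), with a point for each mouse. Sec61b in stellate cells stands at 309 and 320 CPM in WT, 600 to 1050 CPM in i4F and 1282 and 1513 CPM in caerulein mice, and Pdia6 in macrophages at 316 and 413 CPM in WT and 962 and 991 CPM in caerulein mice.

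In endothelial cells 30 of the 35 genes were tested, and 2 were called after caerulein, where 4.11% of all genes were. Sec61b had 194 and 214 CPM in WT and 550 and 432 CPM in caerulein mice and rose by 1.37 (SE 0.30, edgeR adjusted p = 0.0414). Ddit3 had 105 and 87.7 CPM in WT and 19.3 and 34.9 CPM in caerulein mice and fell by 1.85 on the log2 scale (SE 0.40, adjusted p = 0.0364). Without i4F 3 there were 4 calls, where 11% of all genes were called, without caerulein 2 there was 1, and without WT 1, WT 2, caerulein 1 or i4F 2 there were 0. The heat-shock and dissociation genes took 1.77% and 3.16% of endothelial UMIs in WT and 1.24% and 1.34% in caerulein mice, and their part in the result was not tested. In i4F mice 0 genes were called with edgeR, where 0.81% of all genes were, 5 (16.7%) had an unadjusted p under 0.05, where 18.2% of all genes had, DESeq2 called 1, where 2.86% of the genes with an adjusted p were, and without i4F 3 edgeR called 3, where 14.3% of all genes were called. In the clusters labelled NK and T cells 0 of 23 genes tested were called with edgeR in i4F against WT, where 1.51% of all genes were, 5 (21.7%) had an unadjusted p under 0.05, where 14.3% of all genes had, and DESeq2 called 0, where 1.66% of the genes with an adjusted p were.

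In the clusters labelled B lymphocytes Pdia4, Derl3 and Creld2 were lower in i4F than in WT mice, where 0.447% of all genes were called and 0.325% were called lower. These clusters are not alike, since Igkc, Ighm and Jchain lead the WT cluster, with 5 plasma cell markers and 2 B cell markers among its 10 leading genes, and Cd79a, Ly6d and Cd79b lead the i4F cluster. Derl3 had 120 and 157 CPM in the WT cluster and 16.3, 19.8 and 37.1 CPM in the i4F cluster, a log2 fold change of -2.60 (SE 0.43, edgeR adjusted p = 0.0390). The 13 plasma cell markers took 19.4% and 26.0% of the UMIs in WT and 1.37%, 0.923% and 1.69% in i4F mice. Without cells in which these markers took over 10% of the UMIs, which were 3 of 47 and 15 of 111 cells in WT and 2, 0 and 3 cells in i4F mice, 0 of the 26 genes tested were called, where 0.114% of all genes were, and the log2 fold changes of Creld2 and Pdia4 were -0.21 and -0.77. Derl3 did not pass the low-count filter there and has no value. The 3 calls were also lost without WT 2, i4F 1 or i4F 2.

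The i4F cluster labelled follicular B lymphocytes had more of its UMIs in the ER genes than B lymphocytes of the same mice. It held 24, 27 and 67 cells, and 7 of its 10 leading genes, among them Igkc, Jchain and Mzb1, were plasma cell markers. Such markers took 53.6%, 58.1% and 60.7% of its UMIs, so that the data go against the follicular label and the cluster is called plasma cell-like here. The 35 genes made up 1.40%, 1.013% and 1.23% of UMIs in plasma cell-like cells and 0.560%, 0.459% and 0.515% in B lymphocytes. Immunoglobulin genes took 58.4%, 61.5% and 68.8% of the UMIs of plasma cell-like cells, and without them the shares of the 35 genes were 3.37%, 2.63% and 3.94% against 0.569%, 0.465% and 0.525%. The clusters were made from these counts, so that these values are a description with no test. Of the 33 genes with at least 20 UMIs in both clusters together, a filter chosen after seeing the data, 25 were higher in plasma cell-like cells than in B lymphocytes in all 3 mice and 5 were lower in all 3. Of 8084 genes with as many UMIs 3.4% were higher and 69.7% lower in all 3 mice, and B lymphocytes gave more UMIs than plasma cell-like cells in every mouse. Without immunoglobulin UMIs 31 were higher in all 3 mice and 0 lower, where 17.6% of these genes were higher and 29% lower. The median fold was 2.28 with and 6.09 without immunoglobulin UMIs.

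By fold, Derl3 led with 349, 208 and 529 CPM in plasma cell-like cells against 16.3, 19.8 and 37.1 CPM in B lymphocytes, a ratio of means of 14.8. Creld2 had 621, 447 and 696 CPM against 44.3, 39.6 and 55.3 CPM (ratio 12.7), and Sdf2l1 505, 216 and 429 CPM against 79.2, 39.6 and 75.8 CPM (ratio 5.91). Xbp1, which plasma cells need for secretion, had 744, 508 and 653 CPM against 119, 93.9 and 122 CPM. Pdia4, a disulfide isomerase, had 602, 231 and 444 CPM against 105, 69.2 and 86.9 CPM, and Herpud1 692, 1171 and 887 CPM against 137, 193 and 245 CPM (ratio 4.78). In these 6 genes every plasma cell-like value was above every B lymphocyte value, which their choice by fold between the same clusters favours. By level, BiP led with 1734, 1378 and 1713 CPM against 1151, 1093 and 974 CPM (ratio 1.4999). Hsp90b1, the Hsp90 of the ER, had 1579, 955 and 1827 CPM against 578, 257 and 444 CPM (ratio 3.41). Manf had 1249, 878 and 1080 CPM (ratio 3.85), Sec61b 1119, 832 and 770 CPM (ratio 2.65) and Calr 1171, 662 and 722 CPM (ratio 1.73).

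The 5 genes that were lower in plasma cell-like cells in all 3 mice were Atf4, Ddit3, Atf6, Derl2 and Eif2ak3, as 69.7% of all genes were. Atf4 had 201, 146 and 124 CPM against 363, 489 and 314 CPM (ratio 0.403), and Ddit3 58.2, 100.1 and 58.5 CPM against 90.9, 168 and 127 CPM. Atf6 had 58.2, 46.2 and 34.7 CPM against 74.5, 59.3 and 35.4 CPM, and Derl2 51.8, 46.2 and 39.02 CPM against 53.6, 59.3 and 52.6 CPM. Eif2ak3, which encodes PERK, had 6.47, 15.4 and 8.67 CPM, on 7 UMIs in all, against 27.95, 59.3 and 17.7 CPM. Without immunoglobulin UMIs Ddit3, Atf6 and Derl2 turned from lower to higher in all 3 mice, with ratios of 1.499, 2.16 and 2.20, Atf4 was higher in 2 of the 3 mice (ratio 1.06) and Eif2ak3 in 1. Ern1, with 5 and 12 UMIs in plasma cell-like cells and B lymphocytes, and Trib3, with 1 and 9, stand outside these counts.

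**Figure D5:**
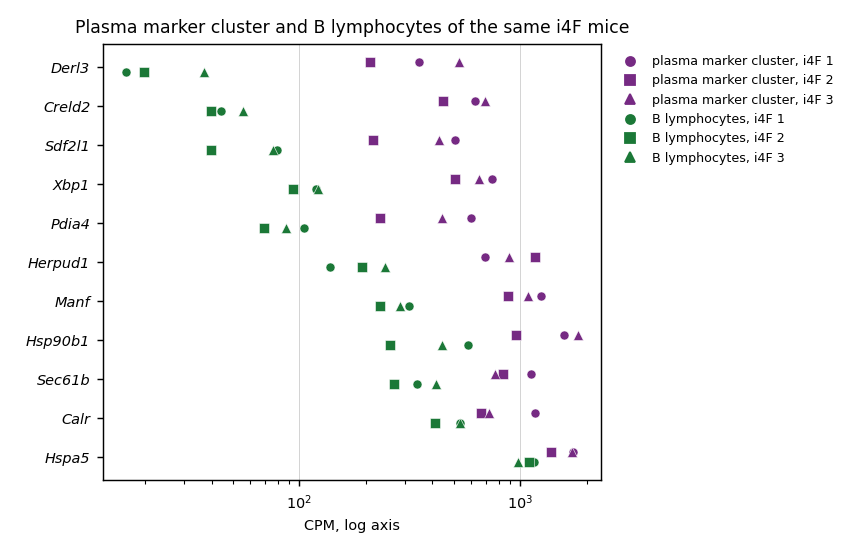
CPM on a log axis (x axis) of the 11 genes highest by level or by fold (y axis) in the plasma cell-like cluster and in B lymphocytes of the same 3 i4F mice, with a point for each mouse. Derl3 stands at 208 to 529 CPM in the plasma cell-like cluster and 16.3 to 37.1 CPM in B lymphocytes, whereas BiP (Hspa5) stands at 1378 to 1734 CPM and 974 to 1151 CPM.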

How the data were processed

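Dissociated pancreas of 7 mice was profiled with the 10x 3′ v3 chemistry, 1 library per mouse. The authors made UMI counts with Cell Ranger on GRCm38 (mm10), removed cells with few genes or a high mitochondrial share, used SoupX and Seurat, clustered each condition separately and named the clusters. The deposited values are whole-number UMI counts per gene and cell, and whether SoupX had been applied to them is not given in the sources used here. The authors also deposited the percent of mitochondrial UMIs per cell, computed with Seurat, which was used only to describe cells. Doublets were not removed further.

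Counts were summed per mouse and cell type where a mouse had at least 20 cells. Sums were tested with edgeR 4.0.16 (R 4.3.3; TMM, filterByExpr, quasi-likelihood, all mice in one fit) and adjusted by Benjamini-Hochberg over all genes. The acinar minus ductal log2 CPM of each mouse (prior count 2) was tested with limma 3.58.1. DESeq2 1.42.0, with shares over the genes to which it gave an adjusted p, and other settings served as alternatives. Tests were also run on simulated data. For stellate cells, i4F against WT, edgeR recovered 22 of 97 genes changed 4-fold and 0 of 99 changed 2-fold. For acinar minus ductal cells, caerulein against WT, limma recovered 53 of 98 genes changed 4-fold, with 11 false calls among 165. That run used normal noise of an assumed spread, so its recovery need not hold for the data. Promoter windows and figures used Python 3.11.15. The genes, lists and named-gene rules were chosen with earlier results of these data known. Named in acinar cells were BiP, the sensors and the transcription factors. Since none of the 35 passed the threshold there, the other genes shown were chosen after their values were seen. Elsewhere up to 4 genes per comparison with the smallest adjusted p were named, and in the plasma cell-like cluster the 6 highest by level and by fold. The genes named for the acinar minus ductal difference go beyond this rule. The labels do not pair the mice by number.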

Additional observations from a re-analysis of the deposited data

Results flagged for a closer look

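The change in acinar cells differed from that in ductal cells of the same mice, by limma's test of the difference itself, for 22 of the 35 genes in caerulein and 1 in i4F mice against WT, where 11.1% and 1.12% of all genes differed. The caerulein count was 0 without caerulein 2, 1 without caerulein 1, 2 without WT 1 and 7 without WT 2, and the i4F count was 0 without any one of the mice other than i4F 3. In caerulein mice the log2 differences of the genes with the smallest adjusted p were -5.79 for Derl3, -4.49 for Creld2, -3.77 for Manf, -5.66 for Sdf2l1, -3.61 for Edem1 and -1.996 for Hsp90b1. They were 2.31 for Ddit3 and 1.21 for Atf4, the transcription factors of the PERK branch. In i4F mice Creld2 had -3.04. No group had enough mice for a test of single outlying samples.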

How the results depend on the processing

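With 2 or 3 mice a group, the counts of called genes depended on the mice and settings, while the medians in acinar cells against WT stayed negative under all settings run. In the order acinar, ductal, stellate and macrophages, caerulein against WT, DESeq2 called 20, 8, 11 and 17 of the 35 genes (7.49%, 8.23%, 21.2% and 11.3% of genes with an adjusted p), and no filter on low counts 20, 12, 13 and 19 (6.26%, 10.5%, 14.3% and 9.3% of all genes). For i4F against WT in acinar, ductal, endothelial and macrophages, and in the B label, DESeq2 called 11, 1, 1, 2 and 6 (9.64%, 2.67%, 2.86%, 4.56% and 1.09% of genes with an adjusted p), and no filter 17, 2, 2, 3 and 9 (8.34%, 5.44%, 4.18%, 5.61% and 0.842% of all genes). No filter also gave 8 in stellate cells of i4F mice and 4 in endothelial cells of caerulein mice (16.3% and 5.74% of all genes). For i4F against caerulein in acinar cells the counts were 2 with DESeq2, 7 without filter, 6 with Acinar_2 alone and 6 with Acinar_1 alone (4.5%, 5.78%, 18% and 3.5% of all genes), and Acinar_2 alone gave 29 against WT (27.5%). The fit of 2 groups alone gave 25 in acinar cells of caerulein mice (23.9%). For the acinar minus ductal difference in i4F mice, no TMM and a prior count of 0.5 both gave 0 (0.246% and 0.975%). Without cells rich in plasma cell markers, a setting chosen after seeing the data as were the single acinar clusters, the B label gave 0 of 26 tested (0.114%). The cause of these shifts was not tested.

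The replicate numbers do not pair the mice. With the number as a replicate block, which absorbs i4F 3, the single mouse of its number, the counts for caerulein were 25 in acinar, 16 in ductal, 4 in endothelial and 17 in stellate cells (16.7%, 23.5%, 7.84% and 35.3% of all genes), and for i4F 28, 10, 1 and 12 (29.6%, 19.2%, 9.92% and 43.9%), with 2 in macrophages, 7 for i4F against caerulein and 29 for the acinar minus ductal difference in i4F mice (6.6%, 19.2% and 25.5%). Same-numbered WT and caerulein mice correlated at -0.205 in acinar cells and crossed numbers at 0.205. With 2 mice in each of these groups the 2 values are equal and opposite by construction, so that they cannot tell how mice pair. A crossed replicate block, which was not planned, gave 26 in acinar, 16 in ductal, 18 in macrophages and 15 in stellate cells (20.2%, 29.6%, 15.5% and 41.8% of all genes).

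Leaving out 1 mouse at a time, counts ranged in caerulein mice from 0 to 26 in acinar, 0 to 17 in ductal, 0 to 4 in endothelial, 0 to 19 in macrophages and 0 to 14 in stellate cells, and 0 to 27 for the difference, the highest counts beside 19.4%, 32.2%, 11%, 16.4%, 39.7% and 26.5% of all genes. In i4F mice they ranged from 0 to 31 in acinar, 0 to 11 in ductal, 0 to 3 in endothelial, 0 to 3 in macrophages and 0 to 11 in stellate cells, 0 to 28 for the difference and 0 to 9 against caerulein, the highest beside 32.7%, 26.5%, 14.3%, 12.4%, 47.8%, 27.3% and 22.5%, and from 0 to 3 in the B label (3 beside 0.632% and 1.4%) and 0 to 0 in NK and T cells. The highest counts came without i4F 3, except in the B label and NK and T cells; without i4F 1 acinar cells of caerulein mice gave 9 (2.88%).

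Some acinar fold changes near 0 changed sign. Xbp1 in caerulein mice went from 0.15 to -0.23 without WT 1, -0.22 without caerulein 1 and -0.28 with the library series (0.81 without WT 2), and in i4F mice from -0.39 to 0.26 without WT 2 and 0.23 with the library series (-1.13 without i4F 3). Atf4 in caerulein mice went from -0.31 to 0.28 without TMM and 0.036 without WT 1 (-0.52 without WT 2), and Eif2ak3 from -0.40 to 0.20 without TMM. Depth limits Ern1, Derl3 in caerulein acinar cells and the small plasma cell-like cluster.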
